A study of Arabidopsis thaliana with 27 samples.

Results

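The transcripts described here were selected on measured values: they lay higher than in wild-type plants in both of the siRNA pathway mutants dcl4-2 and rdr6-15, in leaf and in inflorescence alike. All 22746 probe sets other than the array's AFFX controls were ranked by the smallest of 4 differences of group means, dcl4-2 leaf and rdr6-15 leaf each minus Col-0 leaf, and dcl4-2 and rdr6-15 inflorescence each minus Col-0 set A. The 40 highest were taken, and QQS and AT1G12775, which were among them, were set aside together with AT1G12620 and AT1G63150, which were not, leaving 38 members. The last place was a tie. AT3G56720, inside, and AT4G13360, outside, both had a smallest difference of 0.21, and the order of the deposited table decided between them. The next probe set outside, 257436_s_at, was at 0.20. A gene name was at hand for 19 of the 38 members, and the other 19 are called by their probe set. All values are log2 RMA values, so a difference of 1 is a 2-fold change.

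Wild-type Col-0 and the mutants dcl4-2, rdr6-15 and dcl1-7 of Arabidopsis thaliana were compared on 27 Affymetrix ATH1 arrays in 9 groups of n = 3. Rosette leaves 5 to 8 gave 12 arrays, 3 of each genotype. Inflorescences of stages 1 to 12 gave 15, with 2 Col-0 groups. The labels pair set A with dcl4-2 and rdr6-15, and set B with dcl1-7. The series' design text describes biological replicates made of at least 9 plants for the mutants, and every mutant is represented by 1 allele. RDR6 (RNA-DEPENDENT RNA POLYMERASE 6) copies cleaved transcripts into double-stranded RNA, and DCL4 (DICER-LIKE 4) cuts that double strand into siRNAs, among them the trans-acting siRNAs that lead to cleavage of other mRNAs. The cleavage that starts this process is made by microRNAs, which are cut from hairpin precursors by DCL1 (DICER-LIKE 1), so dcl1-7 is known to affect trans-acting siRNAs as well as microRNAs. In a mutant of the pathway, transcripts that such siRNAs cut are known to accumulate.

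Arrays of a group correlated at 0.980 to 0.998 over all probe sets. Leaf arrays did not separate fully by genotype on this measure, although dcl1-7 replicates 2 and 3 correlated most highly with each other (0.989). Of the 12 leaf arrays 8 correlated most highly with an array of another genotype, among them all 3 of Col-0, all 3 of rdr6-15, and replicate 1 of dcl1-7 (0.985 with rdr6-15 replicate 1, against 0.980 and 0.982 in its own group), while 0 of 15 inflorescence arrays did so. The dcl1-7 leaf values are also given without that replicate, and the members chosen without each array behind the rule. The 3′ minus 5′ difference of 3 housekeeping controls (actin, GAPDH and ubiquitin), a measure of RNA degradation, was 2.63 to 3.56 in leaf and 1.81 to 2.28 on most inflorescence arrays. It was 3.12 on dcl4-2 replicate 2, 2.99 on set B replicate 3 and 3.01 on dcl1-7 replicate 3 of the inflorescence arrays, and its part in the values below was not tested. The organ labels matched the summed levels of their markers. The summed level of the 4 measured of 10 anther genes was at most 8.08 on every leaf array and at least 10.59 on every inflorescence array, and the sum of 3 measured of 15 leaf photosynthesis genes was 14.81 to 15.05 in leaf and 14.18 to 14.73 in inflorescence. By group means LHCB4.1 and LHCB4.2 of these 3 were higher in every leaf group than in any inflorescence group. LHCB4.3 was not, at 11.06 in dcl1-7 leaf against 11.53 in Col-0 set A, 11.58 in dcl4-2 inflorescence and 11.48 in rdr6-15 inflorescence.

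The differences that chose the members were mostly small. Only 1 member, 247643_at, had a smallest difference of at least 0.5, 16 of 38 reached 0.3 and 22 lay below that. The members' median was 0.38 in dcl4-2 leaf, 0.38 in rdr6-15 leaf, 0.46 in dcl4-2 inflorescence and 0.51 in rdr6-15 inflorescence, against medians of 0.01, −0.0023, −0.01 and 0.02 over all probe sets. These values are a description of the choice and carry no test. Of all probe sets, 9.98% lay above Col-0 by group means in all 4 contrasts. The smallest of the 4 differences was that of dcl4-2 leaf in 13 members, rdr6-15 leaf in 11, dcl4-2 inflorescence in 8 and rdr6-15 inflorescence in 6. Differences of at least 1 occurred in 2 members in dcl4-2 leaf, 3 in rdr6-15 leaf, 4 in dcl4-2 inflorescence and 4 in rdr6-15 inflorescence.

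**Figure D1:**
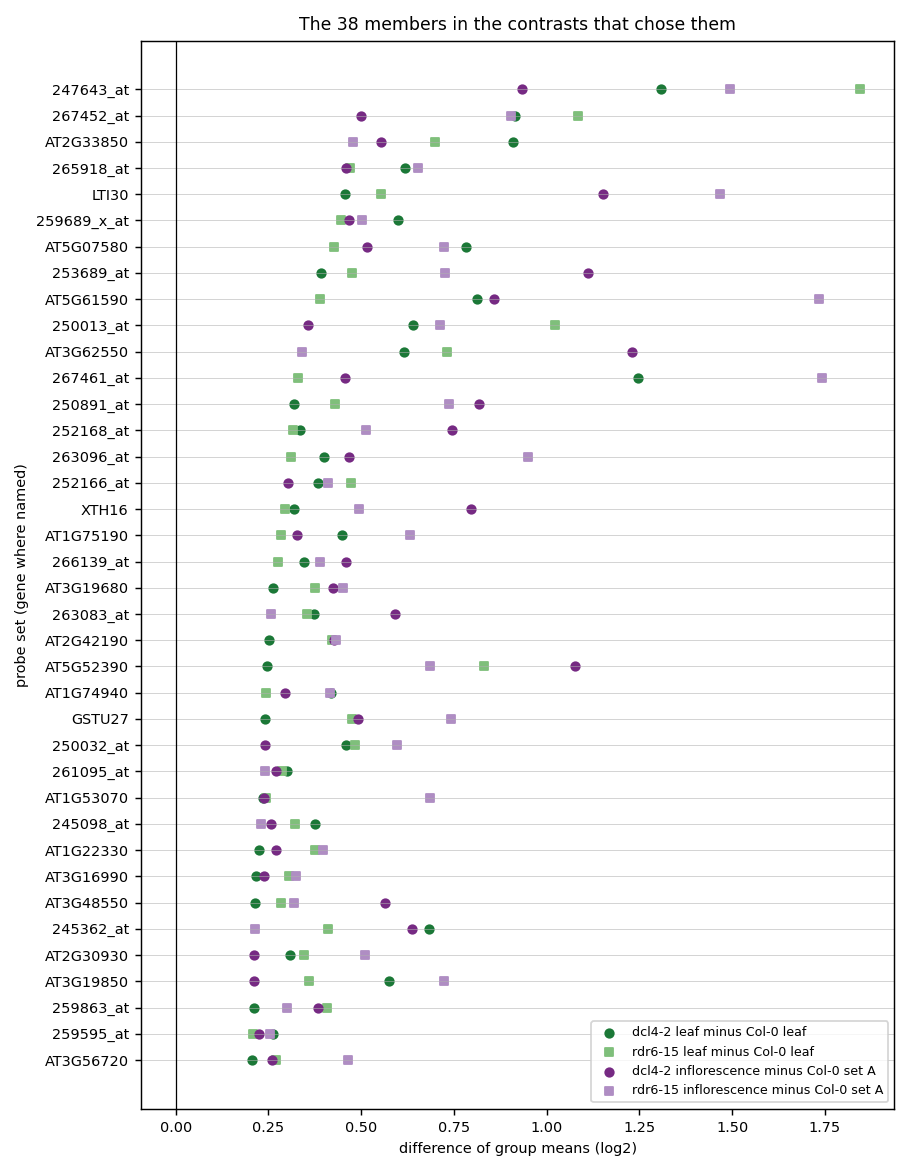
Differences of group means on the log2 scale (horizontal axis) for the 38 members (vertical axis, in order of the smallest difference), in dcl4-2 (circles) and rdr6-15 (squares) of leaf (green) and inflorescence (purple). The smallest differences run from 0.93 for 247643_at down to 0.21 for AT3G56720, and values at or above 1 are few.

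The mutant and Col-0 arrays overlapped more often in leaf than in inflorescence. In dcl4-2 leaf 15 of 38 members had all 3 arrays above all 3 of Col-0 (4.93% of all probe sets did), and in rdr6-15 leaf 14 did (3.78%). In inflorescence the numbers were 34 in dcl4-2 (11.2%) and 37 in rdr6-15 (21.2%). The groups were apart in all 4 contrasts in 8 members (0.0835%), namely 247643_at, 267452_at, 259689_x_at, 253689_at, 250013_at, 250891_at, 263083_at and AT2G30930. The arrays counted here are those that chose the members, so nothing is read from these shares. rdr6-15 had the higher group mean of the 2 mutants in 20 members in leaf and in 24 in inflorescence.

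The choice of the members rested in part on single arrays and on the control used. Over 18 repeats that each left out 1 of the arrays behind the rule, 11 members stayed among the 40 highest every time. Without Col-0 leaf replicate 3, 21 of 38 stayed, and without Col-0 leaf replicate 1, 24 stayed. With group medians in place of means 22 stayed. With Col-0 set B in place of set A 6 stayed, namely 247643_at, 267452_at, AT2G33850, LTI30, 259689_x_at and 253689_at.

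The member with the highest smallest difference was 247643_at, a probe set without a gene name here. In leaf 247643_at read 6.81, 6.38 and 6.47 in Col-0, 8.09, 7.98 and 7.53 in dcl4-2, 8.52, 8.28 and 8.40 in rdr6-15 and 7.82, 7.01 and 7.19 in dcl1-7. Its inflorescence values were 7.51, 7.33 and 7.58 in Col-0 set A, 8.41, 8.59 and 8.22 in dcl4-2 and 8.89, 9.07 and 8.94 in rdr6-15, then 6.62, 6.84 and 6.88 in Col-0 set B and 7.84, 7.60 and 7.88 in dcl1-7. Both siRNA pathway mutants lay above Col-0 on every array of either organ, rdr6-15 highest, and dcl1-7 lay above its own Col-0 in both organs too. The second, 267452_at, behaved much the same way. Its leaf values were 6.93, 7.02 and 6.78 in Col-0, 7.87, 7.85 and 7.76 in dcl4-2, 8.31, 7.90 and 7.79 in rdr6-15 and 8.14, 7.79 and 7.54 in dcl1-7. On the inflorescence arrays it read 8.93, 8.81 and 8.94 in Col-0 set A, 9.36, 9.67 and 9.16 in dcl4-2 and 9.70, 9.88 and 9.81 in rdr6-15, then 7.84, 7.93 and 8.29 in Col-0 set B and 9.05, 8.89 and 8.97 in dcl1-7. For 267452_at every array of the 3 mutants lay above every array of the Col-0 group named as its control, in leaf and in inflorescence. Set B lay below set A for both probe sets, with differences of −0.69 and −0.87.

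259689_x_at is a probe set of the array's _x_at class, whose probes can match related transcripts, so its signal may come from more than 1 gene. On leaf arrays 259689_x_at read 8.25, 8.36 and 8.07 in Col-0, 8.76, 8.90 and 8.82 in dcl4-2, 8.64, 8.56 and 8.81 in rdr6-15 and 8.89, 8.54 and 8.51 in dcl1-7. Inflorescence values of 259689_x_at were 8.94, 9.01 and 9.04 in Col-0 set A, 9.40, 9.57 and 9.43 in dcl4-2 and 9.58, 9.56 and 9.36 in rdr6-15, then 7.75, 8.01 and 7.96 in Col-0 set B and 8.91, 8.84 and 8.81 in dcl1-7. As with the first pair, all 3 mutants lay above their Col-0 groups on every array, and set B lay below set A, here at a difference of −1.09. 253689_at, near the lower end of the scale, had leaf values of 4.89, 5.18 and 5.12 in Col-0, 5.36, 5.42 and 5.58 in dcl4-2, 5.76, 5.44 and 5.42 in rdr6-15 and 5.43, 5.90 and 5.62 in dcl1-7. In inflorescence 253689_at read 5.36, 5.43 and 5.17 in Col-0 set A, 6.51, 6.70 and 6.09 in dcl4-2 and 5.995, 6.06 and 6.08 in rdr6-15, then 5.35, 5.29 and 5.22 in Col-0 set B and 5.77, 5.94 and 5.87 in dcl1-7. The 2 Col-0 sets were nearly equal for this probe set (a difference of −0.04), dcl4-2 inflorescence was the highest group, and all 3 mutants lay above their controls without overlap.

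265918_at and 252166_at departed from that pattern in dcl1-7. Leaf values of 265918_at were 8.62, 8.44 and 8.87 in Col-0, 9.54, 8.71 and 9.53 in dcl4-2, 8.60, 9.43 and 9.31 in rdr6-15 and 8.66, 8.83 and 9.09 in dcl1-7, with 1 array of dcl4-2 and 1 of rdr6-15 inside the range of Col-0. The inflorescence values of 265918_at were 9.30, 9.39 and 9.45 in Col-0 set A, 9.89, 9.99 and 9.63 in dcl4-2 and 10.17, 9.996 and 9.93 in rdr6-15, then 9.42, 9.76 and 9.80 in Col-0 set B and 8.89, 9.03 and 9.15 in dcl1-7. Here dcl1-7 inflorescence lay below both Col-0 sets. 252166_at read 8.37, 8.41 and 8.53 in Col-0, 8.83, 8.51 and 9.12 in dcl4-2, 8.63, 8.86 and 9.24 in rdr6-15 and 8.81, 9.12 and 9.43 in dcl1-7 in leaf. Its values in inflorescence were 9.47, 9.57 and 9.53 in Col-0 set A, 9.82, 9.89 and 9.77 in dcl4-2 and 9.86, 10.02 and 9.92 in rdr6-15, then 10.75, 10.82 and 10.78 in Col-0 set B and 10.23, 10.30 and 10.20 in dcl1-7. For 252166_at set B was above dcl4-2 and rdr6-15, and dcl1-7 was above Col-0 in leaf and below set B in inflorescence.

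**Figure D2:**
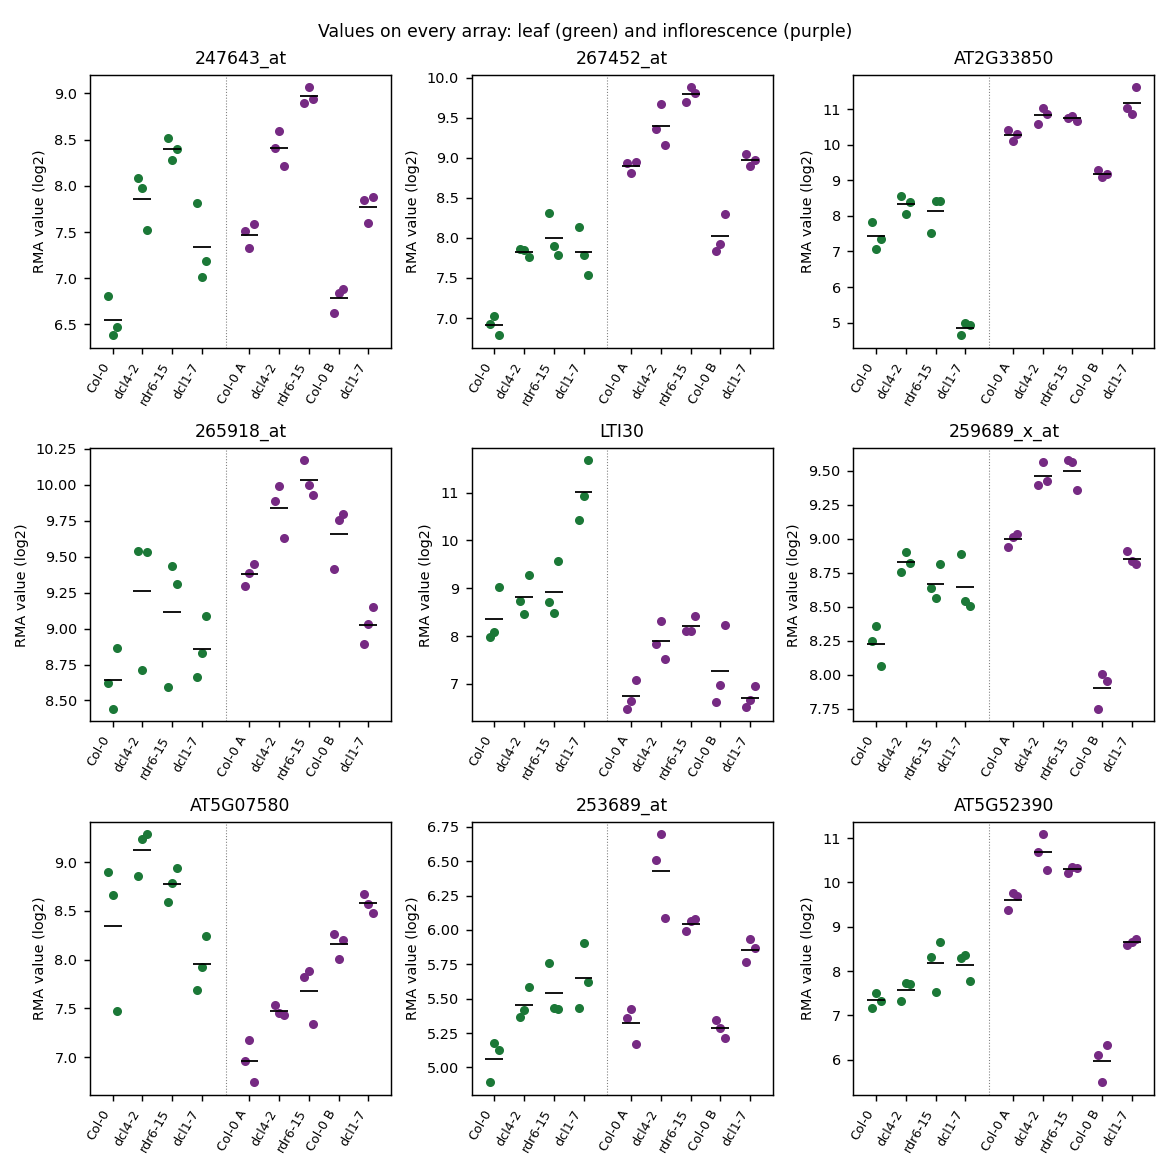
RMA value (log2, vertical axes, which differ between panels and do not start at 0) on each of the 27 arrays (points) with group means (bars) for the 8 members with the highest smallest difference and AT5G52390, in leaf (green) and inflorescence (purple); Col-0 A and B are the 2 inflorescence control sets. The dcl4-2 and rdr6-15 means lie above Col-0 and above set A in every panel, while set B lies as low as 5.97 for AT5G52390, whose set A arrays start at 9.37.

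Among members with a gene name, 5 encode regulators by their protein family. AT5G07580 and AT5G61590 are transcription factors of the AP2/ERF family, and the second, also called DEWAX, is known as a repressor of cuticular wax synthesis. AT5G07580 read 8.89, 8.67 and 7.48 in Col-0, 8.86, 9.24 and 9.29 in dcl4-2, 8.59, 8.78 and 8.94 in rdr6-15 and 7.69, 7.92 and 8.24 in dcl1-7 in leaf. Its inflorescence values were 6.96, 7.17 and 6.74 in Col-0 set A, 7.54, 7.45 and 7.44 in dcl4-2 and 7.82, 7.89 and 7.34 in rdr6-15, then 8.26, 8.01 and 8.20 in Col-0 set B and 8.68, 8.57 and 8.48 in dcl1-7. For AT5G07580 1 Col-0 leaf array was low, and 1 dcl4-2 and 2 rdr6-15 leaf arrays lay below the highest Col-0 array. Leaf values of AT5G61590 were 9.65, 10.24 and 9.93 in Col-0, 10.96, 10.26 and 11.03 in dcl4-2, 9.79, 10.54 and 10.66 in rdr6-15 and 9.39, 9.78 and 10.88 in dcl1-7. In inflorescence AT5G61590 read 7.74, 7.69 and 7.69 in Col-0 set A, 8.66, 8.49 and 8.54 in dcl4-2 and 9.80, 9.41 and 9.11 in rdr6-15, then 9.93, 10.25 and 10.32 in Col-0 set B and 10.28, 10.11 and 10.18 in dcl1-7. Its set A arrays were close together and set B stood 2.46 above them, beyond every dcl4-2 and rdr6-15 array.

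AT3G19850 encodes a protein of the NPH3 family, whose founding member acts in phototropism. It read 6.62, 6.01 and 5.49 in Col-0, 6.68, 7.21 and 5.96 in dcl4-2, 6.43, 6.69 and 6.07 in rdr6-15 and 7.12, 6.54 and 6.74 in dcl1-7 in leaf, where all groups overlapped Col-0. Inflorescence values of AT3G19850 were 5.54, 5.60 and 5.59 in Col-0 set A, 5.78, 5.84 and 5.73 in dcl4-2 and 6.57, 6.18 and 6.13 in rdr6-15, then 6.20, 6.39 and 6.43 in Col-0 set B and 6.78, 6.34 and 6.85 in dcl1-7, with both mutants above set A on every array. AT1G74940 belongs to the plant FLZ zinc finger family. In leaf AT1G74940 read 7.26, 7.59 and 7.48 in Col-0, 7.72, 7.71 and 8.14 in dcl4-2, 7.51, 7.61 and 7.92 in rdr6-15 and 7.69, 7.87 and 8.24 in dcl1-7. In inflorescence its values were 8.26, 8.17 and 8.20 in Col-0 set A, 8.63, 8.43 and 8.45 in dcl4-2 and 8.57, 8.55 and 8.76 in rdr6-15, then 8.15, 8.22 and 7.96 in Col-0 set B and 8.19, 8.17 and 8.14 in dcl1-7. The groups of AT1G74940 overlapped Col-0 in rdr6-15 leaf and were apart in dcl4-2 leaf and in both mutants' inflorescences. AT1G22330, which encodes an RNA-binding protein with an RNA recognition motif, was weakly expressed. AT1G22330 read 5.20, 4.58 and 4.64 in Col-0, 4.99, 5.10 and 4.99 in dcl4-2, 5.22, 5.23 and 5.09 in rdr6-15 and 5.01, 5.16 and 4.90 in dcl1-7 in leaf, where 1 high Col-0 array overlapped the mutants. The inflorescence arrays gave 5.18, 5.10 and 5.25 in Col-0 set A, 5.41, 5.36 and 5.59 in dcl4-2 and 5.65, 5.55 and 5.53 in rdr6-15, then 5.45, 5.27 and 5.12 in Col-0 set B and 5.50, 5.38 and 5.56 in dcl1-7.

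Members known from stress protection and metabolism include LTI30 (also called XERO2), a dehydrin that accumulates in cold and drought. LTI30 read 7.99, 8.08 and 9.03 in Col-0, 8.73, 8.47 and 9.28 in dcl4-2, 8.71, 8.49 and 9.57 in rdr6-15 and 10.43, 10.92 and 11.67 in dcl1-7 in leaf, where 1 Col-0 array was high and the dcl4-2 and rdr6-15 values overlapped Col-0. The inflorescence values of LTI30 were 6.48, 6.65 and 7.09 in Col-0 set A, 7.84, 8.31 and 7.52 in dcl4-2 and 8.10, 8.10 and 8.42 in rdr6-15, then 6.62, 6.98 and 8.23 in Col-0 set B and 6.51, 6.66 and 6.96 in dcl1-7. Both siRNA mutants lay above set A on every inflorescence array, by 1.15 in dcl4-2 and 1.47 in rdr6-15, and dcl1-7 was at the level of set A. In leaf, by contrast, dcl1-7 was the highest group of LTI30, 2.64 above Col-0. GSTU27, a glutathione transferase of the tau class, had leaf values of 9.41, 9.03 and 8.96 in Col-0, 9.48, 9.42 and 9.22 in dcl4-2, 9.46, 9.84 and 9.52 in rdr6-15 and 9.41, 9.81 and 9.87 in dcl1-7. In inflorescence GSTU27 read 7.75, 7.83 and 7.58 in Col-0 set A, 8.26, 8.30 and 8.07 in dcl4-2 and 8.50, 8.40 and 8.48 in rdr6-15, then 8.28, 7.94 and 8.16 in Col-0 set B and 8.63, 8.61 and 8.36 in dcl1-7. It was apart from set A in both mutants and from Col-0 leaf in rdr6-15 and, narrowly, in dcl1-7.

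AT3G62550 encodes a protein of the universal stress protein family. Its leaf values were 8.27, 8.85 and 9.45 in Col-0, 9.55, 8.97 and 9.89 in dcl4-2, 8.64, 9.84 and 10.28 in rdr6-15 and 10.44, 11.12 and 11.70 in dcl1-7, with a Col-0 spread of more than 1 unit that the dcl4-2 and rdr6-15 arrays overlapped. Its inflorescence values were 9.01, 9.15 and 9.24 in Col-0 set A, 10.40, 10.65 and 10.04 in dcl4-2 and 9.62, 9.41 and 9.40 in rdr6-15, then 10.63, 10.74 and 11.23 in Col-0 set B and 10.30, 10.96 and 11.69 in dcl1-7. Set B of AT3G62550 was above the rdr6-15 arrays and overlapped only the highest dcl4-2 array. AT3G16990 encodes a TENA-type enzyme of thiamin salvage. AT3G16990 read 9.08, 9.36 and 9.21 in Col-0, 9.44, 9.33 and 9.53 in dcl4-2, 9.74, 9.18 and 9.64 in rdr6-15 and 9.14, 8.86 and 8.99 in dcl1-7 in leaf, where the groups overlapped. In inflorescence the AT3G16990 values were 8.18, 8.36 and 8.20 in Col-0 set A, 8.49, 8.58 and 8.37 in dcl4-2 and 8.58, 8.53 and 8.60 in rdr6-15, then 8.93, 8.91 and 9.18 in Col-0 set B and 8.54, 8.66 and 8.64 in dcl1-7, with both mutants above set A on every array and set B higher still.

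XTH16, a xyloglucan endotransglucosylase/hydrolase, belongs to a family of enzymes that cut and rejoin xyloglucan in the cell wall. XTH16 read 7.64, 7.39 and 7.61 in Col-0, 8.11, 7.82 and 7.66 in dcl4-2, 7.81, 7.56 and 8.16 in rdr6-15 and 6.86, 7.03 and 6.54 in dcl1-7 in leaf. In inflorescence the values were 9.21, 8.93 and 9.05 in Col-0 set A, 10.08, 9.90 and 9.60 in dcl4-2 and 9.61, 9.73 and 9.34 in rdr6-15, then 9.44, 9.26 and 9.60 in Col-0 set B and 9.51, 9.36 and 9.31 in dcl1-7. The dcl4-2 arrays were above Col-0 in both organs, and dcl1-7 leaf was below Col-0 leaf on every array. AT1G53070 encodes a protein of the legume lectin family. Leaf values of AT1G53070 were 6.54, 6.42 and 6.30 in Col-0, 6.63, 6.62 and 6.72 in dcl4-2, 6.44, 6.98 and 6.57 in rdr6-15 and 6.20, 6.47 and 6.34 in dcl1-7, all low. In inflorescence AT1G53070 read 9.59, 9.46 and 9.46 in Col-0 set A, 9.85, 9.47 and 9.92 in dcl4-2 and 10.06, 10.25 and 10.26 in rdr6-15, then 6.65, 6.44 and 6.71 in Col-0 set B and 8.28, 8.15 and 7.66 in dcl1-7. Set B minus set A was −2.91 for AT1G53070, so the 2 wild-type groups differed by more than either mutant did from set A.

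AT5G52390, whose product belongs to the PAR1 protein family, showed the widest gap of that direction. AT5G52390 read 7.17, 7.51 and 7.33 in Col-0, 7.32, 7.73 and 7.70 in dcl4-2, 8.32, 7.53 and 8.66 in rdr6-15 and 8.30, 8.36 and 7.78 in dcl1-7 in leaf. Its inflorescence values were 9.37, 9.76 and 9.68 in Col-0 set A, 10.68, 11.09 and 10.27 in dcl4-2 and 10.20, 10.35 and 10.32 in rdr6-15, then 6.10, 5.49 and 6.34 in Col-0 set B and 8.60, 8.67 and 8.71 in dcl1-7. Set B minus set A was −3.63, and dcl1-7 inflorescence lay between the 2 sets. AT2G33850 had opposite leaf and inflorescence differences in dcl1-7. Its leaf values were 7.84, 7.08 and 7.36 in Col-0, 8.56, 8.07 and 8.39 in dcl4-2, 7.52, 8.43 and 8.43 in rdr6-15 and 4.64, 4.99 and 4.94 in dcl1-7. In inflorescence AT2G33850 read 10.43, 10.10 and 10.30 in Col-0 set A, 10.58, 11.04 and 10.87 in dcl4-2 and 10.77, 10.82 and 10.67 in rdr6-15, then 9.29, 9.08 and 9.18 in Col-0 set B and 11.03, 10.86 and 11.63 in dcl1-7. All 3 dcl1-7 leaf arrays lay far below every other leaf array, and all 3 dcl1-7 inflorescence arrays lay above set B.

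No role is given here for the remaining named members. AT1G75190 read 5.37, 5.27 and 5.60 in Col-0, 5.80, 5.84 and 5.94 in dcl4-2, 5.43, 5.66 and 6.001 in rdr6-15 and 6.71, 6.60 and 7.07 in dcl1-7 in leaf. Across inflorescence arrays it was at 7.05, 6.86 and 7.05 in Col-0 set A, 7.13, 7.89 and 6.92 in dcl4-2 and 7.50, 7.67 and 7.69 in rdr6-15, then 7.69, 7.78 and 8.47 in Col-0 set B and 7.44, 7.65 and 8.01 in dcl1-7. AT1G75190 overlapped set A in dcl4-2 through 1 array and was highest in leaf in dcl1-7. AT3G19680 had leaf values of 7.06, 6.74 and 7.46 in Col-0, 7.66, 6.93 and 7.46 in dcl4-2, 7.12, 7.03 and 8.23 in rdr6-15 and 7.62, 7.28 and 7.49 in dcl1-7. In inflorescence AT3G19680 read 7.18, 7.35 and 7.26 in Col-0 set A, 7.68, 7.44 and 7.94 in dcl4-2 and 7.88, 7.70 and 7.56 in rdr6-15, then 8.64, 8.84 and 8.04 in Col-0 set B and 8.56, 8.58 and 7.89 in dcl1-7. Leaf groups overlapped for AT3G19680, and set B exceeded both siRNA mutants. Leaf values of AT2G42190 were 8.29, 8.31 and 8.04 in Col-0, 8.64, 8.55 and 8.20 in dcl4-2, 8.37, 8.59 and 8.93 in rdr6-15 and 8.76, 8.84 and 8.76 in dcl1-7. Inflorescence values of AT2G42190 were 7.77, 7.87 and 7.88 in Col-0 set A, 8.02, 8.71 and 8.06 in dcl4-2 and 8.31, 8.36 and 8.15 in rdr6-15, then 8.54, 8.80 and 9.31 in Col-0 set B and 8.87, 8.74 and 9.20 in dcl1-7. rdr6-15 was apart from Col-0 in both organs for AT2G42190, and set B was again above set A.

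AT3G48550 was among the weakly expressed members. It read 5.56, 5.25 and 5.23 in Col-0, 5.75, 5.43 and 5.51 in dcl4-2, 5.60, 5.86 and 5.42 in rdr6-15 and 5.53, 5.19 and 5.46 in dcl1-7 in leaf. Its inflorescence values were 6.01, 6.01 and 5.85 in Col-0 set A, 6.32, 6.82 and 6.43 in dcl4-2 and 6.14, 6.21 and 6.47 in rdr6-15, then 5.79, 5.89 and 6.14 in Col-0 set B and 6.003, 6.11 and 6.28 in dcl1-7. The 2 Col-0 sets were alike for AT3G48550 and both siRNA mutants lay above set A, while leaf groups overlapped. AT2G30930 was 1 of the 8 members apart from Col-0 in all 4 contrasts. Leaf values of AT2G30930 were 7.49, 7.52 and 7.40 in Col-0, 8.06, 7.69 and 7.59 in dcl4-2, 7.82, 7.75 and 7.88 in rdr6-15 and 8.55, 7.89 and 8.34 in dcl1-7. In inflorescence AT2G30930 read 6.68, 6.69 and 6.76 in Col-0 set A, 7.12, 6.78 and 6.86 in dcl4-2 and 7.26, 7.16 and 7.23 in rdr6-15, then 8.30, 7.98 and 7.97 in Col-0 set B and 7.43, 7.51 and 7.40 in dcl1-7, so that set B exceeded every siRNA mutant array. AT3G56720, the last member, read 6.78, 7.01 and 7.09 in Col-0, 7.35, 6.87 and 7.28 in dcl4-2, 6.93, 7.13 and 7.64 in rdr6-15 and 7.20, 6.96 and 7.34 in dcl1-7 in leaf. For inflorescence the values were 8.35, 8.45 and 8.47 in Col-0 set A, 8.57, 8.86 and 8.60 in dcl4-2 and 8.73, 8.95 and 8.97 in rdr6-15, then 8.46, 8.78 and 8.97 in Col-0 set B and 8.57, 8.41 and 8.50 in dcl1-7. The leaf groups of AT3G56720 overlapped, and both mutants lay above set A.

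The 13 other members are probe sets without a gene name. Their differences from Col-0 ran from 0.21 to 1.25 in dcl4-2 leaf, 0.21 to 1.02 in rdr6-15 leaf, 0.22 to 0.82 in dcl4-2 inflorescence and 0.21 to 1.74 in rdr6-15 inflorescence. The widest range was that of 267461_at, described here after its values were seen, which read 5.72, 6.41 and 7.95 in Col-0, 7.75, 6.99 and 9.08 in dcl4-2, 5.80, 7.04 and 8.24 in rdr6-15 and 8.39, 8.74 and 9.20 in dcl1-7 in leaf. In inflorescence 267461_at was at 7.21, 7.56 and 7.78 in Col-0 set A, 8.22, 8.09 and 7.62 in dcl4-2 and 9.29, 9.24 and 9.25 in rdr6-15, then 12.90, 13.06 and 13.36 in Col-0 set B and 12.24, 12.43 and 12.40 in dcl1-7. Its Col-0 leaf arrays alone spanned more than 2 units, and set B was 5.59 above set A.

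The 2 wild-type inflorescence sets differed by more than the mutants did for many members. Set B minus set A ran from −3.63 (AT5G52390) to 5.59 (267461_at), with a member median of 0.56 against −0.0037 over all probe sets. In 21 of 38 members this difference was larger in size than both mutant differences from set A. The share of all probe sets for which this held was not computed, so nothing particular to the members is read from it. All set B arrays were above all set A arrays in 21 members (27.4% of all probe sets) and below them in 7 (29.8%). Set A entered the rule, which favours probe sets that read low there, and these counts are a description only. Both siRNA mutant means lay above set B as well as set A in 18 members, again a count without a share over all probe sets. Markers of organ parts moved with the sets. The summed level of the 4 anther genes was 11.66 to 11.97 in set A, 10.59 to 11.10 in set B and 10.91 to 11.06 in dcl1-7, and that of 3 measured of 7 carpel and ovule genes was 8.62 to 8.71, 9.40 to 9.49 and 8.95 to 9.12. In dcl4-2 and rdr6-15 the anther sums were 11.44 to 11.85 and 10.74 to 11.89, and the carpel sums 8.73 to 9.00 and 8.69 to 8.78. Their part in the members' differences was not tested, and in bulk tissue fewer cells of a type and less RNA per cell cannot be told apart.

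**Figure D3:**
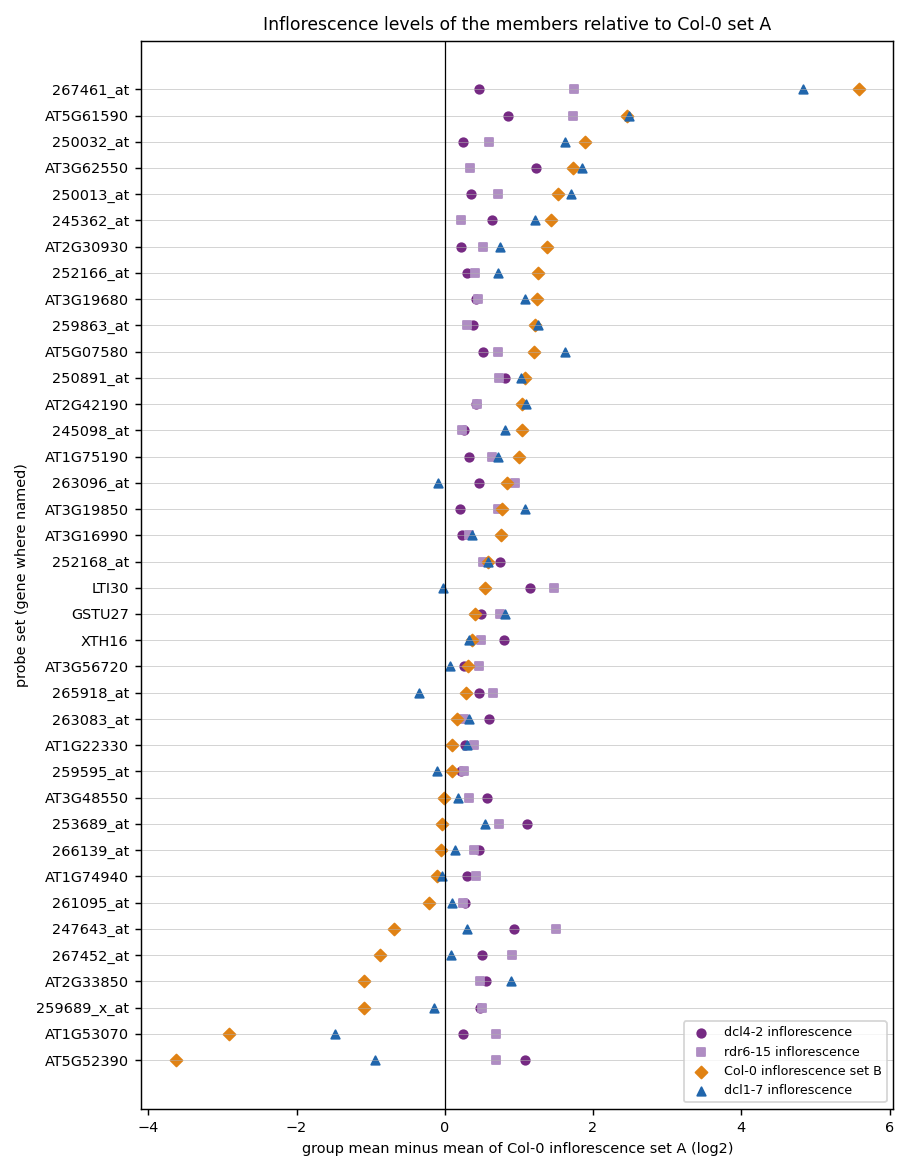
Inflorescence group means of the 38 members minus the mean of Col-0 set A (log2, horizontal axis) for dcl4-2 (dark circles), rdr6-15 (light squares), Col-0 set B (orange diamonds) and dcl1-7 (blue triangles), with members sorted by set B. Set B ranges from −3.63 to 5.59 around set A, and 21 members have a set B difference larger in size than both siRNA mutant differences. The share of all probe sets with such a difference was not computed.

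The comparison of dcl1-7 inflorescence with set B asks how the members behave where microRNA production, and with it the start of the siRNA pathway, is impaired. It is the 1 comparison of a mutant with its Col-0 in which no array had a part in choosing the members. By limma with Benjamini-Hochberg adjustment over all 22746 probe sets, at an adjusted p under 0.05, 10 of 38 members rose and 6 fell, against 12.6% of all probe sets called higher and 10.8% called lower. The members' median was 0.05, against −0.01 over all probe sets. Thus 22 members were not called, with differences of −0.56 to 0.31.

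The rises were led by AT5G52390, at 8.66 against 5.97 in set B, a difference of 2.69 (SE 0.21, adjusted p = 1.9e-06). AT2G33850 rose by 1.99 (SE 0.17, adjusted p = 4.0e-06) and the lectin gene AT1G53070 by 1.43 (SE 0.15, adjusted p = 2.35e-05). The unnamed probe sets with the top ranks rose as well. 247643_at rose by 0.99 (SE 0.11, adjusted p = 3.72e-05), 267452_at by 0.95 (SE 0.13, adjusted p = 0.000166) and 259689_x_at by 0.95 (SE 0.08, adjusted p = 3.51e-06). 253689_at rose by 0.57 (SE 0.12, adjusted p = 0.0044), GSTU27 by 0.41 (SE 0.10, adjusted p = 0.011) and 261095_at by 0.31 (SE 0.07, adjusted p = 0.0058). The AP2/ERF gene AT5G07580 rose by 0.42 (SE 0.14, adjusted p = 0.043), a call that held in 4 of 13 alternatives and was lost when any 1 of the 3 set B arrays was left out (highest adjusted p over the alternatives 0.29). Of the 10 that rose, 7 had every set B array below every set A array, as 29.8% of all probe sets did. Low set B values favour both this and a call of higher. The share among all probe sets called higher was not computed, so nothing is read from the 7. By group means dcl1-7 lay below set A for AT5G52390 (8.66 against 9.605), AT1G53070 (8.03 against 9.505) and 259689_x_at (8.85 against 9.00). The other members that rose lay above set A.

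Among the falls, 263096_at fell by 0.93 (SE 0.13, adjusted p = 0.00017), 267461_at by 0.75 (SE 0.17, adjusted p = 0.0053), AT2G30930 by 0.64 (SE 0.10, adjusted p = 0.00041) and 265918_at by 0.63 (SE 0.12, adjusted p = 0.0015). 252166_at fell by 0.54 (SE 0.06, adjusted p = 2.16e-05) and the thiamin salvage gene AT3G16990 fell by 0.40 (SE 0.08, adjusted p = 0.0032). By group means dcl1-7 nevertheless lay above set A for 267461_at (12.36 against 7.52) and 252166_at (10.24 against 9.52). The same held for AT2G30930 (7.45 against 6.71) and AT3G16990 (8.61 against 8.24), while 263096_at and 265918_at lay below set A. LTI30 was at −0.56 (SE 0.34, adjusted p = 0.29), a value that 1 array set in large part: it was −0.09 without set B replicate 3 and −0.89 without set B replicate 1. XTH16 was at −0.04 (SE 0.14, adjusted p = 0.90). The differences of AT5G61590 (0.02, SE 0.14) and AT3G62550 (0.12, SE 0.28) were smaller than their errors. Among the 3 carpel and ovule genes, INO fell by 1.06 (SE 0.14, adjusted p = 0.00012) and SPT by 0.42 (SE 0.10, adjusted p = 0.0081) in the same comparison. The third, NGA1, was not called, at 0.13 (SE 0.14, adjusted p = 0.61), and 0 of 4 anther genes were called. Whether tissue makeup plays a part in the members' calls was not tested. In all, 12 of the 16 calls held under each of the 13 alternatives tried. GSTU27 was not called without set B replicate 2 or with only the 6 arrays compared (adjusted p up to 0.071), and 261095_at and 267461_at were not called in a fit of all 27 arrays (adjusted p = 0.060 and 0.42).

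**Figure D4:**
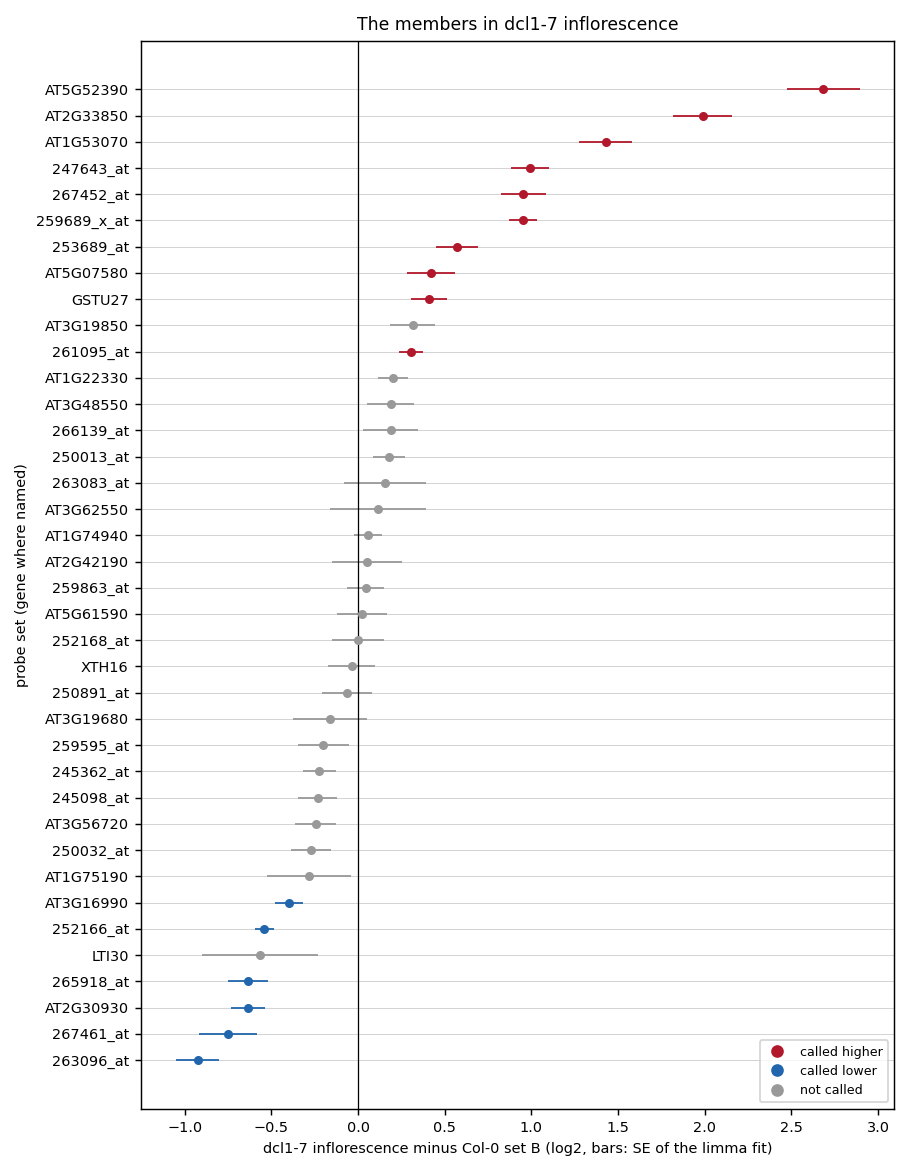
Difference of dcl1-7 inflorescence from Col-0 set B (log2, horizontal axis) with the standard error of the limma fit (bars) for the 38 members, coloured by whether the adjusted p was under 0.05. The 10 members called higher reach 2.69 (AT5G52390), the 6 called lower reach −0.93 (263096_at), and 22 are not called.

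In leaf, dcl1-7 was set against the same Col-0 arrays that chose the members, so no test is given. The group mean of dcl1-7 was above Col-0 in 31 of 38 members and below it in 7, with a median of 0.50 against 0.02 over all probe sets. All 3 dcl1-7 arrays were above all Col-0 arrays in 20 members (11.0% of all probe sets) and below them in 3 (12.0%). Without replicate 1 of dcl1-7 the median was 0.57, and the group mean was above Col-0 in 30 members and below it in 8. The largest differences were those of LTI30 (2.64), AT3G62550 (2.23) and 267461_at (2.08), followed by AT1G75190 (1.38) and 263083_at (1.32). AT2G33850 (−2.57), 263096_at (−0.78) and XTH16 (−0.74) were the 3 below Col-0 on every array. Of the 10 members that rose in dcl1-7 inflorescence, 7 lay above every Col-0 array in dcl1-7 leaf. The same share among all probe sets called higher was not computed, so nothing is read from this count.

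Levels of the members in the 2 organs were compared within dcl1-7, whose arrays had no part in the choice. By limma on all 27 arrays, 17 of 38 members were called higher in inflorescence than in leaf and 7 lower. Of all probe sets, 31.3% were called higher and 33.8% lower, so calls were common in both directions. The members' share was larger than that of all probe sets for higher and smaller for lower, and this was not tested. It depended on the probe sets counted. Among the 17059 probe sets at or above the lower quartile of mean level, 6758 were called higher and 5238 lower. Of the 37 members among them, 16 were called higher and 7 lower, so the shares for higher were nearer together. Nothing particular to the members is read from these shares. The estimate of spread included the arrays of the rule. With only the 6 arrays compared, 17 members were called higher and 6 lower, against 6158 and 5338 of all 22746 probe sets. AT2G33850 differed most, at 11.17 in inflorescence and 4.86 in leaf, a difference of 6.32 (SE 0.22, adjusted p = 2.16e-16). The organs were nearer together in Col-0, where its means were 7.43 in leaf, 10.28 in set A and 9.19 in set B. Differences of at least 2 were also found for 267461_at (3.58, SE 0.52), 245362_at (3.25, SE 0.21), XTH16 (2.59, SE 0.16) and 250013_at (2.56, SE 0.14). In the other direction, LTI30 was lower in inflorescence by a difference of −4.30 (SE 0.38, adjusted p = 1.58e-09), 263096_at by −1.75 (SE 0.24) and GSTU27 by −1.16 (SE 0.14). For LTI30 too the organs were nearer together in Col-0, at 8.37 in leaf, 6.74 in set A and 7.28 in set B. The leading probe set 247643_at was higher in inflorescence by 0.43 (SE 0.17, adjusted p = 0.031), a call lost in 7 of 12 alternatives, including the omission of leaf replicate 2 or 3 or of inflorescence replicate 1 or 3 (adjusted p up to 0.20). AT5G07580 was higher by 0.63 (SE 0.24, adjusted p = 0.028), a call also lost in 7 of 12, among them the omission of leaf replicate 1 or 2 or of inflorescence replicate 1 or 2 (adjusted p up to 0.11).

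Of all probe sets called between the organs, 48.0% were higher in inflorescence. After each array was set to the same median the share was 35.9%, since centring moved the median difference over all probe sets from −0.07 to −0.20. Members called were then 15 higher and 7 lower, against 5992 and 10695 of all 22746 probe sets, and the member median moved from 0.22 to 0.09. Without dcl1-7 leaf replicate 1, 17 and 7 members were called, against 7029 and 8169 of all probe sets. AT5G07580 was no longer among the 17 and 259689_x_at (0.33, adjusted p = 0.0062) was.

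**Figure D5:**
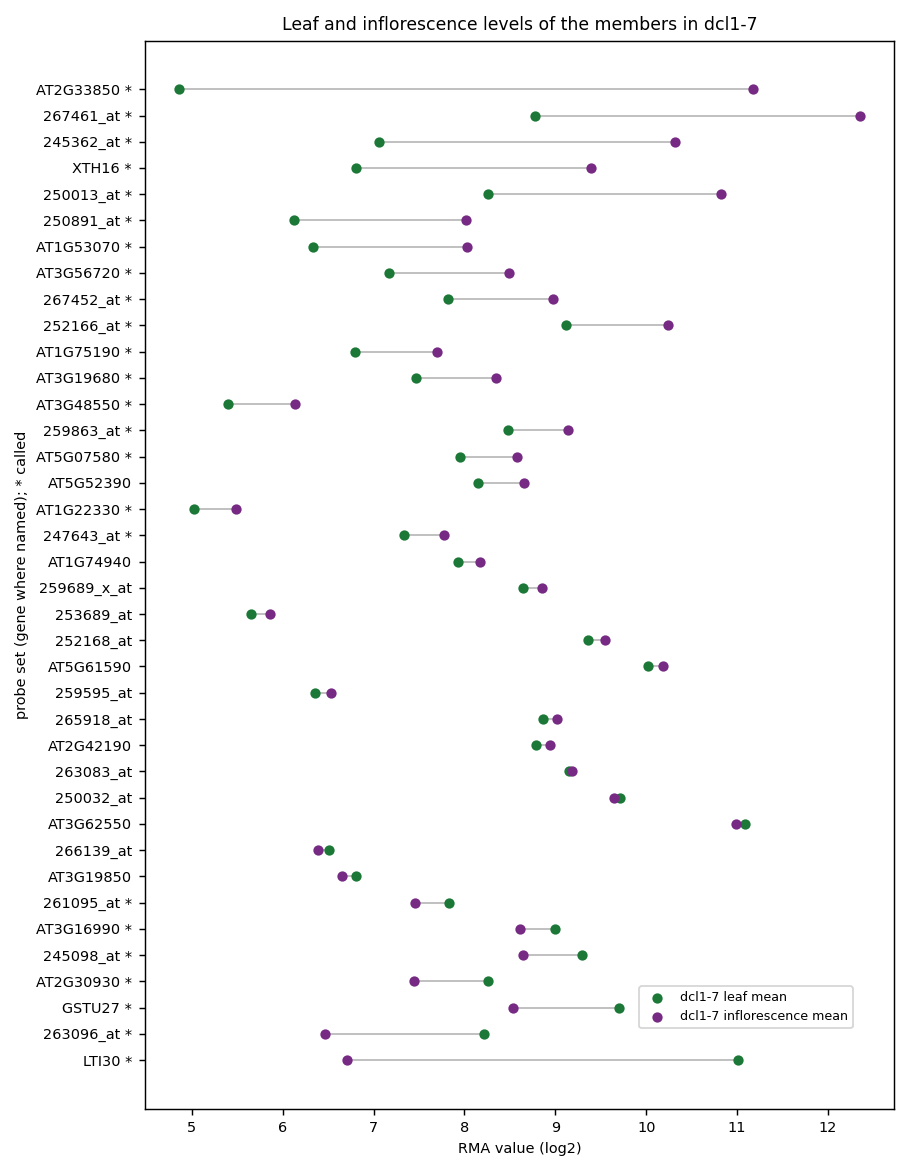
Mean RMA value (log2, horizontal axis) of the 38 members in dcl1-7 leaf (green) and dcl1-7 inflorescence (purple), n = 3 each, sorted by the difference, with an asterisk where limma called it. AT2G33850 at the top runs from 4.86 in leaf to 11.17 in inflorescence, and LTI30 at the bottom from 11.01 in leaf to 6.71 in inflorescence.

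Other genes of the pathway were looked up from lists of its machinery and targets. Of 25 genes of the small RNA machinery 3 had a probe set with a single symbol, and 1 of the 3 was called in dcl1-7 inflorescence. AGO7, the ARGONAUTE that binds miR390 at the TAS3 precursor, rose by 0.51 (SE 0.11, adjusted p = 0.0037). Its dcl1-7 mean was 7.42, against 6.91 in set B and 7.57 in set A. TEX1, a component of the THO/TREX mRNA export complex, was at 0.44 (SE 0.18, adjusted p = 0.095) and SE, the zinc finger partner of DCL1, at −0.12 (SE 0.08, adjusted p = 0.39). In dcl4-2 and rdr6-15 the AGO7 differences were −0.20 and 0.11 in leaf and −0.01 and −0.21 in inflorescence, with no test here. The 6 trans-acting siRNA precursors and 10 of their target genes outside the RFL family were not analysed here, since 0 of them had such a probe set. The RFL genes encode pentatricopeptide repeat proteins and include siRNA targets. Of 28 listed, 15 were measured, of which 3 rose and 0 fell in dcl1-7 inflorescence, against 12.6% and 10.8% of all probe sets. With so few genes, nothing particular to the family is read from this count. AT1G63150 rose by 0.79 (SE 0.08, adjusted p = 1.35e-05), AT1G62860 by 0.45 (SE 0.12, adjusted p = 0.015) and AT1G63080 by 0.39 (SE 0.09, adjusted p = 0.0065). AT1G63150 and AT1G63080 were weakly expressed, with set B means of 4.89 and 5.37. The median difference of the 15 was 0.04. None of the 19 members with a gene name is on these lists, and the 19 without one could not be matched to them.

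The genes set aside from the ranking had different profiles. QQS was at 0.53 and 2.16 in dcl4-2 and rdr6-15 leaf and at 1.44 and 3.06 in their inflorescences, and lay below Col-0 in dcl1-7, at −1.36 in leaf and −1.54 in inflorescence. AT1G12775 was at 1.00 and 0.95 in leaf and at 0.52 and 0.49 in inflorescence, and at 1.22 and 0.40 in dcl1-7.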

How the data were processed

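RNA was measured on 27 ATH1 arrays. The authors deposited a log2 value for each probe set on each array. The submitters' processing notes name RMA, which corrects background, normalizes between arrays and summarises probes. Its version is not given in the sources used here, nor is whether both organs were normalized in 1 run. Array medians were 6.93 to 7.00 in leaf and 7.04 to 7.17 in inflorescence. Differences of weak transcripts are compressed by RMA. Arrays carry no read depth, so their number limits the precision.

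Samples were grouped by their labels. The 64 AFFX probe sets were left out. Gene names came from the platform annotation held by GEO, where 13513 of 22746 have 1 symbol, 503 several and 8730 none, and symbols were updated through RefSeq genes (TAIR10.1), which also gave the gene order. No sequences are printed.

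Group means were fitted by lmFit and eBayes of limma 3.58.1 under R 4.3.3, over the 15 inflorescence arrays for dcl1-7 against set B and over all 27 arrays for the organs. Standard errors are those of the fit, and Benjamini-Hochberg adjusted p under 0.05 over all probe sets are called. The script was tested on simulated data. Differences between arrays used by the ranking rule were not tested, though these arrays entered the estimate of spread in both fits. Alternatives changed the samples fitted, array weights, scaling, filter (probe sets under the lower quartile of mean level left out), variance model and each replicate. Values on every array are given for 25 members: the 8 with the highest smallest difference, all with a symbol, and the 6 with the smallest adjusted p in dcl1-7 inflorescence. Those of 267461_at were added after its values were seen. The members and lists were chosen with earlier results of these data known. Whether the mutants were correctly labelled could not be checked on their own genes, which are not analysed here. Summed levels are log2 of the sum of the linear values over a list's measured genes.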

Additional observations from a re-analysis of the deposited data

Results flagged for a closer look

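The dcl1-7 difference from Col-0 pointed in opposite directions in the 2 organs for 4 members, with every dcl1-7 array outside the range of its Col-0 group in each organ. AT2G33850 was at −2.57 in leaf and 1.99 in inflorescence. 267461_at was at 2.08 in leaf and −0.75 in inflorescence. 252166_at was at 0.68 and −0.54, and AT2G30930 at 0.79 and −0.64. The difference between the organs was not tested, because the Col-0 leaf arrays had a part in choosing the members. How many of all probe sets showed such opposite directions was not computed, so nothing particular to the members is read from the count.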

How the results depend on the processing

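With 3 arrays per group, the membership was the least stable result. Of the 38 members, 21 to 37 stayed among the 40 highest when 1 array was left out, 22 with group medians and 6 with Col-0 set B in place of set A; centring the arrays or leaving out probe sets under the lower quartile of mean level kept 37 each. The cause was not tested. For dcl1-7 inflorescence against set B, the 5314 calls became 3303 (1804 higher, 1499 lower) with only the 6 arrays compared, where fewer arrays estimate the spread, 7510 (4069 higher, 3441 lower) with array weights, and 3910 to 5552 with 1 array left out. Members called ranged over all alternatives from 8 to 10 higher and from 5 to 9 lower. For the organs, members called ranged from 15 to 18 higher and from 6 to 7 lower. All probe sets called between the organs ranged from 5992 to 7115 higher and from 5238 to 10695 lower, the main fit included. No call of a member reversed. In the first comparison 13 single calls of members were lost and 9 gained over all alternatives, and in the second 15 were lost and 6 gained; uncalled values changed sign in 24 and 12 cases. No paired analysis was possible because the labels give no replicate numbers shared between groups.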

Other observations

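AT2G33850 lies near a known target of the pathway. In the RefSeq gene order 1 gene lies between it and ARF3 (locus AT2G33860), an auxin response factor cut by trans-acting siRNAs. The other 18 named members had 24 or more genes between them and the nearest listed pathway gene. This was looked up after the values of AT2G33850 were seen. The share of all genes that lie so near a listed gene was not computed, and the 19 unnamed members could not be placed. Whether the position has a part in the values was not tested. No pair of named members was adjacent, and the closest pair, AT3G19680 and AT3G19850, had 17 genes between.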
